A study of Mus musculus with 12 samples.

Results

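The olfactory receptor genes of mouse chromosome 7 were examined in nucleosome maps of male germ cells. The set held the 239 protein-coding genes of the RefSeq annotation of GRCm38 on chromosome 7 whose symbol begins with Olfr and a digit, of 21887 protein-coding genes on 21 chromosomes and of 1110 protein-coding genes with such symbols. Calls were counted over each gene body with 1000 bp on each side, called the gene window below, and over the clusters that the genes form. Membership was set by symbols and positions and no measured value, though the set was chosen with earlier results of these data known.

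The maps were made by MNase-seq, in which DNA wrapped on histones is protected from micrococcal nuclease (MNase) while exposed linker DNA is cut away. Male SV129 mice aged 8 to 12 weeks gave germ cells that were separated by sedimentation, with testes of 11 mice pooled for each collection and a stated purity of at least 85%. The groups were round spermatids (RS, the haploid cells before histones are exchanged for protamines) digested with 0.5, 1 or 2 U of MNase, and a fraction titled meiotic spermatid and described as meiotic in the protocol (M), digested with the same amounts. All groups were wild-type SV129, and RS was digested with 2 times as many cells as M. Each group had 2 samples, which the authors combined into 1 list of calls, so 6 lists were compared and no replicate lists existed. No difference could be tested against replicate error, and each interval below is a 95% interval for counting error only. Calls of 140 bp that overlap are not independent, so these intervals are too narrow. A list averages over the cells of its samples, so fewer cells with a nucleosome and a weaker nucleosome in each cell cannot be told apart. The identity of the cells could not be checked against marker genes, since no expression was measured.

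Olfactory receptors are G protein-coupled receptors that bind odorants in the cilia of olfactory sensory neurons. Each such neuron expresses a single receptor gene from a very large family, and the genes lie in clusters. Mouse chromosome 7 carries the class I receptors, which resemble those of fish, in a single large cluster, and class II receptors in other clusters. Most receptor genes have 1 coding exon without introns.

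Of the 239 genes, 209 had an entry in the RefSeq promoter table of GRCm38.p6, which runs from 250 bases before to 50 bases after the annotated start. Calls overlapped 26 of these windows (12.4%, 8.29 to 17.7), with 41 calls in all. A call overlapped 7.08% of all promoters in the table, 6.82% of those of other autosomal Olfr genes and 6.39% of those of other genes of at most 2000 bp. From 0.5 to 2 U they numbered 20, 2 and 1 in RS and 8, 4 and 6 in M. In each of the 26 promoters the calls came from a single list. The sequences of 4 promoters are shown because they had the most bases within calls in each stage, among promoters at a gene end with at least 2 calls, with RS calls in the first 2 and M calls in the other 2. They were chosen after their values were seen. Olfr559 lies at chr7:102724439-102724738 on the minus strand, with 3 calls of RS at 0.5 U, and Olfr651 at chr7:104552634-104552933 on the plus strand, with 2 calls of the same list. Olfr492 lies at chr7:108323625-108323924 on the minus strand, with 2 calls of M at 1 U, and Olfr503 at chr7:108544277-108544576 on the plus strand, with 2 calls of M at 2 U. Sequences read 5′ to 3′ along the gene, and capitals mark bases within a call.
Olfr559: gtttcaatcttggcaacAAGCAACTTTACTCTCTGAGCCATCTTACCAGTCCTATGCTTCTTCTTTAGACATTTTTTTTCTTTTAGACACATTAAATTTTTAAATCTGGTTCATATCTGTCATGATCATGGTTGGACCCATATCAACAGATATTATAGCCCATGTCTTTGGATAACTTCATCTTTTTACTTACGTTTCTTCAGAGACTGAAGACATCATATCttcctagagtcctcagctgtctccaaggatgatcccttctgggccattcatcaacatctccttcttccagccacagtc
Olfr651: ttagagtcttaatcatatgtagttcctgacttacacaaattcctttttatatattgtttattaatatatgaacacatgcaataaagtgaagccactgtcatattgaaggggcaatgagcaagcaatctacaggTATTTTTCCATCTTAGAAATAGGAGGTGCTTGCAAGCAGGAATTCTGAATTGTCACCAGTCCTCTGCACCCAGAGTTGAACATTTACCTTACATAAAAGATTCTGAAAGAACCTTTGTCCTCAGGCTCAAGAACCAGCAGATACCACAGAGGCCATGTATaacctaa
Olfr492: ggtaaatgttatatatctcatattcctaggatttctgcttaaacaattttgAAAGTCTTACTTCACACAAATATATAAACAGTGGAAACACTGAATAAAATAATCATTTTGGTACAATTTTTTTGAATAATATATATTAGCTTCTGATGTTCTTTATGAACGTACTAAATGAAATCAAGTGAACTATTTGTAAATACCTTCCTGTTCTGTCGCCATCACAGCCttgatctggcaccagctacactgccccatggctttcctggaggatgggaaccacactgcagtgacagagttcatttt
Olfr503: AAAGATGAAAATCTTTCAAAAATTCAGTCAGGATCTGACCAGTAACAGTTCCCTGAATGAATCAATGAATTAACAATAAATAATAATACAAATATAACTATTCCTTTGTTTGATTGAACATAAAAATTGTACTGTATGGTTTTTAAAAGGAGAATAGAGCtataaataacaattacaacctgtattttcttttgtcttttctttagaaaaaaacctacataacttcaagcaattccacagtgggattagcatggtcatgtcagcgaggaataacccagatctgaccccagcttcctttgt

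The calls covered 205 bases in the window of Olfr559, 160 in Olfr651, 172 in Olfr492 and 160 in Olfr503. In each of the 4, most of the covered bases lay before the annotated start. Promoters of the set were poor in G and C, with a median of 37.0% (quartiles 33.3% to 40.3%). Over 21263 promoters of 17492 protein-coding genes, called all promoters here, it was 56.3% (48.3% to 64.7%). Genes with several promoters count more than once there, while each of the 209 genes of the set has 1. The motif of the core promoter known as the TATA box, spelled TATAAA, occurred on either strand in 89 of 209 promoters (42.6%) and in 12.6% of all promoters. TAATTA, a core of homeodomain sites such as those of LHX2, occurred in 13.4% and 4.53%, and CCCNNGGG, the core of sites for EBF factors, in 4.31% and 15.6%. None of the 3 motifs contains another, and both strands were searched. Those matches describe the letters and do not show sites in use. Whether the low share of G and C alone gives these differences was not tested. No motif share is given for promoters of other Olfr genes, so the differences are not particular to chromosome 7. Of the 239 gene models, 199 had a length that is a multiple of 3, as models without UTRs have, and for such a model the window lies before the coding start and need not hold the promoter.

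The calls at these genes were few in number, over windows that are short. Counted once, 210 calls of the 6 lists lay in the gene windows, and after joining midpoints within 73 bp they marked 138 positions. The windows together cover 918 kb. Of the 239 genes, 107 (44.8%) had a call in any list and 132 had none. Over all protein-coding genes 63.9% had a call. Those genes have a median length of 17169 bp and a median of 2 calls, while the receptor genes have a median length of 954 bp and a median of 0 calls. Among 1338 other autosomal protein-coding genes of at most 2000 bp, 22.5% had a call, against 84 of the 207 receptor genes of that size (40.6%). Among the 865 Olfr genes on other autosomes the share was 38.5%. Of the 32 receptor genes longer than 2000 bp, 23 had a call.

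By list, 56 genes had a call in RS at 0.5 U (23.4%, 18.2 to 29.3), where 47.6% of all protein-coding genes had one. In RS at 1 U there were 9 (3.77%, 1.74 to 7.03; 22.2% of all genes), and in RS at 2 U there were 3 (1.26%, 0.260 to 3.62; 16.8% of all genes). In M at 0.5 U there were 12 (5.02%, 2.62 to 8.61; 14.9% of all genes), in M at 1 U 20 (8.37%, 5.19 to 12.6; 22.9% of all genes) and in M at 2 U 28 (11.7%, 7.93 to 16.5; 27.6% of all genes). Among other short genes the shares were 12%, 3.44% and 1.72% in RS and 2.62%, 3.74% and 4.63% in M. Among Olfr genes elsewhere they were 22.4%, 4.86% and 1.85% in RS and 4.62%, 8.09% and 7.86% in M. The number of genes with calls was therefore lower at each larger amount in RS and higher at each larger amount in M. The shares of all protein-coding genes and of other short genes had the same order. Those of Olfr genes elsewhere had it in RS, while in M the share at 2 U was below that at 1 U. The total number of calls in the lists moved in the same way as the number of receptor genes with calls.

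The lists differ in size, so densities were set relative to the 19 autosomes. A relative density of 1 means as many calls per bp as the autosomes between their first and last call. In RS the gene windows held 103, 12 and 4 calls from 0.5 to 2 U, and in M they held 17, 30 and 44. The relative density in RS was 1.53 (1.25 to 1.86) at 0.5 U, 0.801 (0.414 to 1.40) at 1 U and 0.421 (0.115 to 1.08) at 2 U. The relative density in M was 1.13 (0.659 to 1.81), 1.38 (0.931 to 1.97) and 1.85 (1.34 to 2.48). The interval lay above 1 for RS at 0.5 U and for M at 2 U, the list with the most calls in each stage. With calls above 6 reads implied by the authors' p-values, where the minimum is 6, both intervals include 1, at 1.35 (0.893 to 1.97) and 0.978 (0.393 to 2.01). M at 1 U lay above 1 relative to protein-coding genes (1.75, 1.18 to 2.49) and without dense bins (1.57, 1.06 to 2.24), that is, leaving out each 10 kb bin where at least 1 list had over 20 calls. The density of all autosomal protein-coding genes, in windows of the same kind, stayed between 0.709 and 0.922 in the 6 lists.

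**Figure D1:**
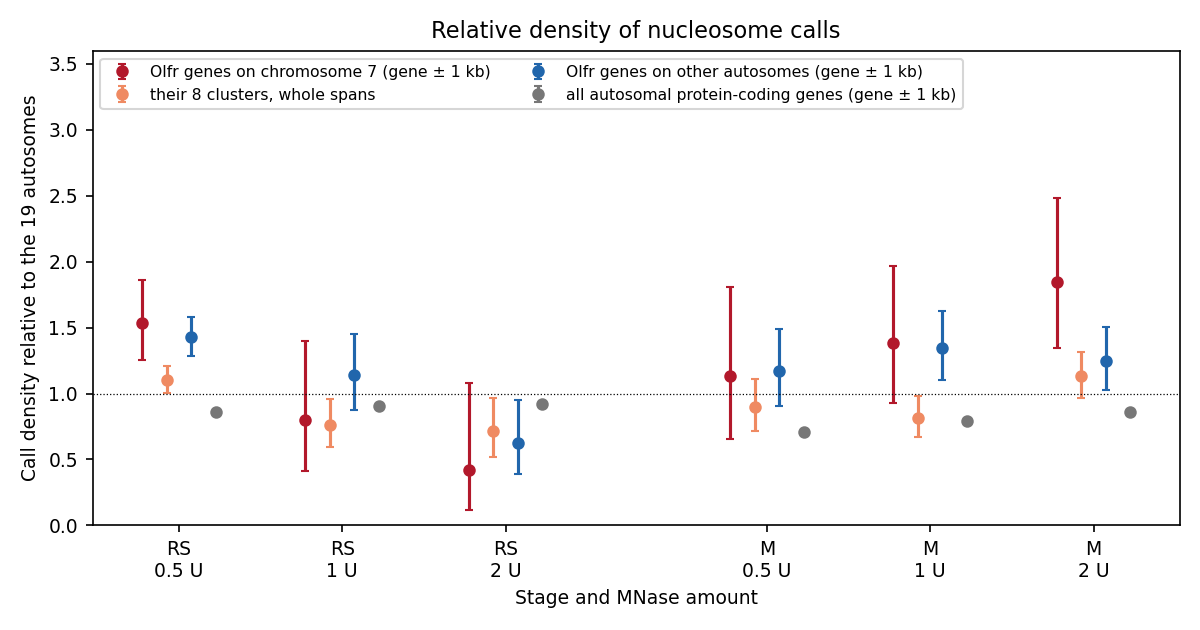
Call density relative to the 19 autosomes (y axis) in each list, by stage and MNase amount (x axis), for the chromosome 7 Olfr gene windows, their clusters, Olfr genes on other autosomes and all autosomal protein-coding genes. Points are values and bars exact 95% Poisson intervals. Olfr genes on chromosome 7 decline over the amounts in RS (1.53, 0.801, 0.421) and increase in M (1.13, 1.38, 1.85).

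Over the range of amounts, the log2 change from 0.5 to 2 U was -1.87 (-3.31 to -0.43) in RS and 0.71 (-0.10 to 1.52) in M. The difference, RS minus M, was -2.58 (-4.23 to -0.92). The interval in M includes 0, while that of RS and that of the difference do not. With calls whose midpoints lie within 73 bp merged to 1, the RS change was -1.60 (-3.27 to 0.07), and with calls above 6 reads the difference was -1.85 (-5.17 to 1.47). Olfr genes on other autosomes and Vmn1r genes had a difference of the same sign, while that of Vmn2r genes was positive (0.40, -0.23 to 1.04). It was -1.28 (-2.05 to -0.52) for Olfr genes on other autosomes and -2.37 (-4.67 to -0.06) for Vmn1r genes, where it includes 0 with merged calls (-1.74, -4.12 to 0.65). Over all autosomal protein-coding genes it was -0.18 (-0.22 to -0.14). Outside the clusters, chromosome 7 gave log2 changes of 0.27 in RS and 0.19 in M, with a difference of 0.08 (-0.03 to 0.19). Other short genes gave 0.29 and 0.24, with a difference of 0.04 (-0.58 to 0.67). The implied coverage of the lists, derived from the authors' p-values as the mean reads per window, moved in the same way over the amounts, from low to high amount 0.696, 0.472 and 0.409 in RS and 0.434, 0.484 and 0.507 in M. The total number of calls did too, with 179133, 41655 and 27101 in RS and 42178, 60077 and 65614 in M. The effects of amount, of list size and of coverage on these densities cannot be told apart.

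Set against M at the same amount, the stage ratio was above 0 at 0.5 U and furthest below 0 at 2 U, on the log2 scale. In calls per 100000 autosomal calls, RS had 58.6 and M 43.2 at 0.5 U, with a log2 ratio of 0.44 (-0.30 to 1.18). At 1 U RS had 30.6 and M 52.7, with a log2 ratio of -0.78 (-1.75 to 0.18). At 2 U RS had 16.1 and M 70.5, with a log2 ratio of -2.13 (-3.61 to -0.66), from 4 calls in RS and 44 in M. The intervals at 0.5 and 1 U include 0 and the one at 2 U does not. With calls above 6 reads the one at 2 U includes 0 too (-1.45, -4.48 to 1.57), and relative to protein-coding genes the one at 1 U excludes it (-0.98, -1.95 to -0.01). The mean of the 3 amounts was -0.83 (-1.46 to -0.19) and rests on 2 U, since it was -0.17 without that amount, and with merged calls it was -0.71 (-1.45 to 0.03). At equal MNase per cell, the ratio of RS at 1 U to M at 0.5 U was -0.50 (-1.56 to 0.57), and that of RS at 2 U to M at 1 U was -1.71 (-3.22 to -0.21), or -1.53 (-3.28 to 0.22) with merged calls. Equal MNase per cell need not be equal MNase per DNA, since RS cells are haploid and DNA per cell was not taken into account. Between the list of highest coverage in each stage, RS at 0.5 U and M at 2 U, the log2 ratio was -0.27 (-0.78 to 0.24).

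**Figure D2:**
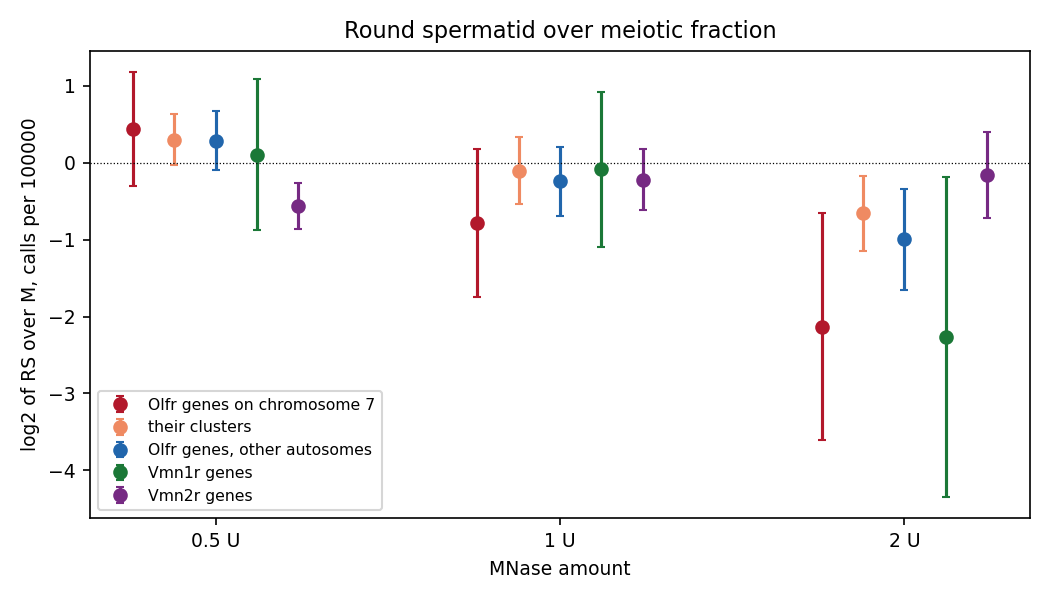
The log2 ratio of RS to M in calls per 100000 autosomal calls (y axis) at each MNase amount (x axis), with 95% counting intervals, for the chromosome 7 Olfr genes, their clusters, Olfr genes on other autosomes and vomeronasal receptor genes. Chromosome 7 Olfr genes lie at 0.44, -0.78 and -2.13; the Vmn2r genes stay between -0.56 and -0.16.

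Olfr genes elsewhere had the same order of stage ratios over the amounts. The 865 Olfr genes on other autosomes had relative densities of 1.43, 1.14 and 0.626 in RS and 1.17, 1.34 and 1.25 in M, and RS over M was 0.29 (-0.09 to 0.67), -0.24 (-0.69 to 0.21) and -0.997 (-1.66 to -0.34) on the log2 scale. Against them the chromosome 7 genes were higher in M at 2 U, by a log2 ratio of 0.56 (0.06 to 1.07), and in the other lists the interval of this ratio included 0. The ratio in M at 2 U was 0.46 (-0.16 to 1.07) with merged calls and -0.26 (-1.44 to 0.92) with calls above 6 reads. For the stage ratio at 2 U the difference between the sets was -1.14 (-2.75 to 0.48), so a difference from the other Olfr genes was not detectable at this depth. Against other short genes, the log2 stage ratio of the chromosome 7 genes differed by 0.49 (-0.35 to 1.33) at 0.5 U, -1.13 (-2.18 to -0.08) at 1 U and -2.13 (-3.69 to -0.58) at 2 U. The interval at 1 U includes 0 without dense bins (-1.01, -2.07 to 0.04) and with merged calls (-0.85, -2.06 to 0.37), and that at 2 U includes 0 with calls above 6 reads (-1.38, -4.50 to 1.73). Vomeronasal receptor genes, the families of pheromone receptors, were set beside them. Vmn1r genes had 2 calls in RS and 24 in M at 2 U, a log2 ratio of -2.26 (-4.34 to -0.18), or -1.83 (-3.93 to 0.28) with merged calls. Vmn2r genes had a ratio of -0.16 (-0.72 to 0.40) at 2 U, and the chromosome 7 Olfr genes differed from this by -1.97 (-3.55 to -0.40). At 0.5 U the difference ran the other way, at 1.01 (0.21 to 1.80), and over the 3 amounts it averaged -0.51 (-1.20 to 0.17). With merged calls both include 0, at -1.67 (-3.52 to 0.19) for 2 U and 0.84 (-0.13 to 1.80) for 0.5 U. From 0.5 to 2 U in M, the log2 change was 0.71 for the chromosome 7 Olfr genes and -0.92 for Vmn2r genes, a difference of 1.63 (0.73 to 2.52).

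The windows were compared with the spaces between the genes. Inside the clusters but outside the gene windows, the relative density was 1.02, 0.749 and 0.774 in RS and 0.850, 0.704 and 0.992 in M. The gene windows were denser than these spaces in RS at 0.5 U, by a log2 ratio of 0.59 (0.27 to 0.90), in M at 1 U, by 0.97 (0.37 to 1.58), and in M at 2 U, by 0.90 (0.40 to 1.39). In the other 3 lists the interval included 0. For the stage ratio at 2 U the windows differed from the spaces by -1.78 (-3.34 to -0.21). With merged calls this was -1.81 (-3.64 to 0.01). With calls above 6 reads it was 0.56 (-2.91 to 4.03), and the densities in RS at 0.5 U and M at 2 U differed by 0.45 (-0.16 to 1.06) and 0.22 (-0.96 to 1.41). Over the 202 genes whose promoter entry starts at an end of the gene model, which gives them a strand, calls in the 1000 bp upstream, the body and the 1000 bp downstream numbered 50, 97 and 31. Per Mb, summed over the 6 lists, these are 248, 280 and 153. In M at 2 U they numbered 8, 23 and 3, and in RS at 0.5 U 25, 43 and 22. Gene bodies alone had a relative density of 1.67, 0.829 and 0.653 in RS and 1.10, 1.52 and 2.78 in M. Bodies of Olfr genes on other autosomes had 1.47, 1.39 and 0.806 in RS and 1.75, 1.86 and 1.86 in M. At 2 U in M the chromosome 7 bodies stood above these by a log2 ratio of 0.58 (-0.01 to 1.17), an interval that includes 0.

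The genes fell into 8 clusters, where neighbours up to 500 kb apart were joined. They hold 8, 2, 15, 2, 126, 25, 42 and 19 genes in order along the chromosome. Spans were taken with 1000 bp on each side and together measure 5656 kb. The clusters held 457, 70 and 42 calls in RS and 83, 109 and 166 in M. The relative density of the spans was 1.10 (1.01 to 1.21), 0.758 (0.591 to 0.957) and 0.716 (0.516 to 0.968) in RS and 0.896 (0.713 to 1.11), 0.813 (0.668 to 0.981) and 1.13 (0.965 to 1.32) in M. The 3 intervals below 1 include 1 without dense bins, at 0.892 (0.695 to 1.13), 0.877 (0.632 to 1.19) and, in M, 0.927 (0.761 to 1.12), and likewise with merged calls, and M at 2 U was 1.28 (1.09 to 1.49) without dense bins. The interval of RS at 0.5 U includes 1 with merged calls (1.11, 0.991 to 1.25). For the spans, RS over M on the log2 scale was 0.30 (-0.03 to 0.64), -0.10 (-0.53 to 0.33) and -0.66 (-1.15 to -0.17), the last being -0.43 (-1.01 to 0.15) with merged calls. The direction at each amount was that of the gene windows, which the spans contain, and the sizes were smaller. In the spaces outside the windows RS over M was 0.27 (-0.11 to 0.64), 0.09 (-0.40 to 0.58) and -0.36 (-0.88 to 0.17). Each of these intervals includes 0, and at 1 U the sign was not that of the windows.

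The largest cluster runs from Olfr543 to Olfr692, at chromosome 7 from 102475773 to 105370317, and contains Olfr78, Olfr558 and Olfr544, which are class I receptors. Its 126 genes are taken here as class I by position, because no protein sequence was used. It held 211, 27 and 16 calls in RS and 51, 43 and 78 in M. Its relative density was 0.997, 0.571 and 0.533 in RS and 1.08, 0.627 and 1.04 in M. The interval lay below 1 in RS at 1 U (0.376 to 0.831) and 2 U (0.305 to 0.866) and in M at 1 U (0.454 to 0.844). In RS at 2 U it includes 1 without dense bins (0.653, 0.373 to 1.06), and with merged calls it includes 1 in RS at 1 U (0.686, 0.425 to 1.05) and 2 U (0.680, 0.362 to 1.16). The other clusters together had 1.22, 0.953 and 0.908 in RS and 0.707, 1.01 and 1.23 in M. The class I cluster was less dense than those by a log2 ratio of -0.29 (-0.55 to -0.02) in RS at 0.5 U, -0.74 (-1.43 to -0.04) in RS at 1 U and -0.69 (-1.24 to -0.13) in M at 1 U. With calls above 6 reads each of the 3 intervals includes 0, and in RS at 1 U it does with merged calls (-0.63, -1.43 to 0.17). In the remaining 3 lists the interval included 0, and in M at 0.5 U the class I cluster was the denser one. Class I gene windows held 58, 3 and 1 calls in RS and 10, 16 and 19 in M, while class II windows held 45, 9 and 3 in RS and 7, 14 and 25 in M. In RS at 1 U the class I windows were less dense than the class II windows by a log2 ratio of -1.89 (-3.78 to -0.01), from 3 and 9 calls (-1.53, -3.48 to 0.42 with merged calls), and in the other 5 lists the interval included 0. The stage ratio at 2 U was -2.92 (-5.82 to -0.02) for class I and -1.73 (-3.46 to -0.01) for class II, a difference of -1.19 (-4.57 to 2.19) that cannot be told from 0. Without dense bins both ratios include 0, at -2.81 (-5.71 to 0.09) and -1.62 (-3.35 to 0.11), and with calls above 6 reads that of class I was 0.35 (-3.11 to 3.82). Of the class I genes 53 (42.1%) had a call, and of the 113 class II genes 54 (47.8%).

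**Figure D3:**
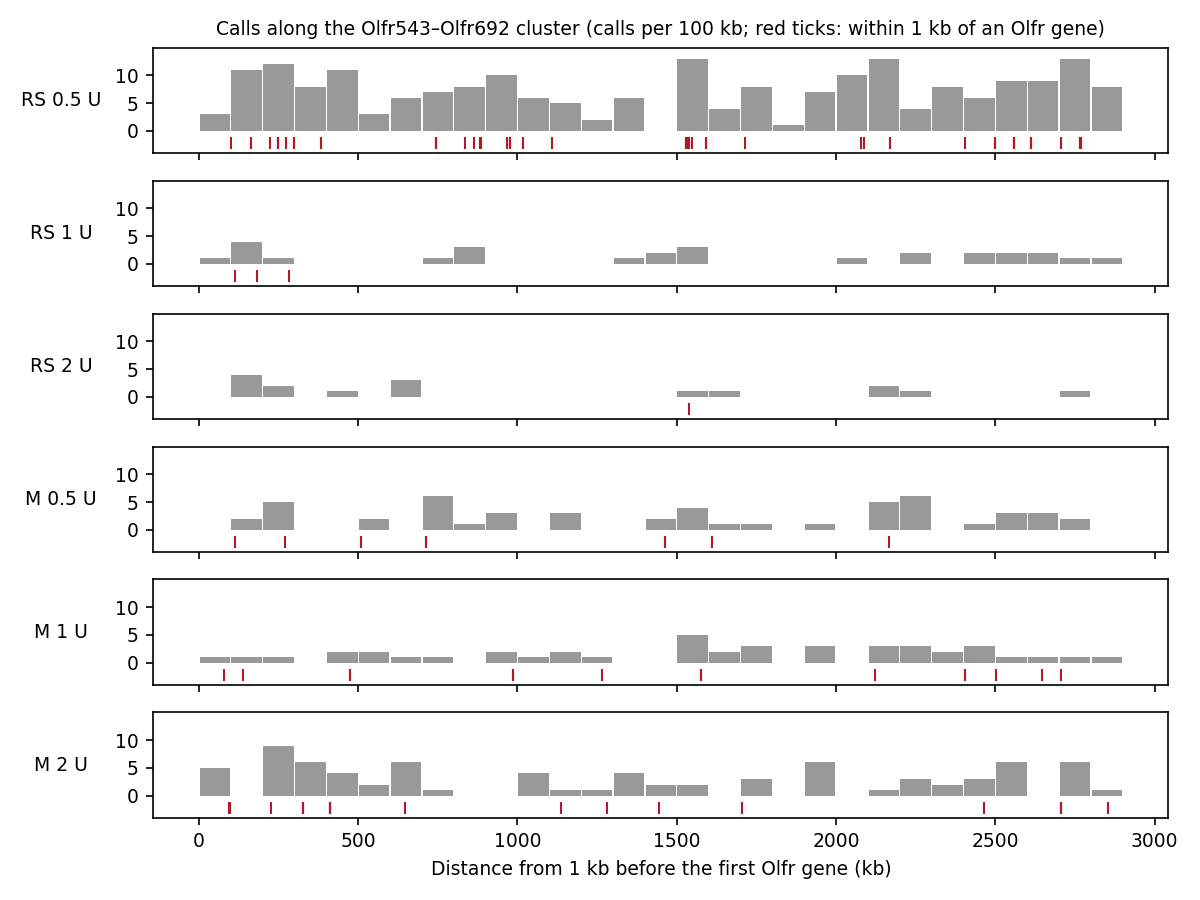
Calls per 100 kb (y axis, grey bars) along the Olfr543 to Olfr692 cluster by distance from 1 kb before its first receptor gene (x axis, kb), for each list in a row, with red ticks for calls in receptor gene windows. Calls are spread along the cluster in RS at 0.5 U (211 calls) and are sparse in RS at 2 U (16 calls), with 1 call in a gene window.

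Among the class II clusters, the one from Olfr467 to Olfr519 (42 genes, from 107813586 to 108895405) held 100, 15 and 9 calls in RS and 13, 26 and 39 in M. Its log2 change from 0.5 to 2 U was -0.66 in RS and 0.92 in M, a difference of -1.58 (-2.91 to -0.24), or -0.91 (-2.41 to 0.59) with merged calls. The cluster from Olfr693 to Olfr716 (25 genes, from 106676534 to 107149329) held 57, 5 and 9 calls in RS and 4, 13 and 16 in M, and 15 of its genes had a call. The cluster from Olfr522 to Olfr541 (19 genes, from 140161010 to 140706191) held 37, 11 and 3 calls in RS and 9, 12 and 19 in M. The cluster from Olfr310 to Olfr292 (15 genes, from 86267730 to 86696384) held 40, 10 and 2 in RS and 3, 13 and 10 in M. The small clusters from Olfr1344 to Olfr1350, from Olfr291 to Olfr290 and from Olfr520 to Olfr521 held 10, 15 and 1 calls over the 6 lists. For the clusters ending in Olfr292, Olfr716 and Olfr541 the difference in log2 change was -2.58 (-5.34 to 0.19), -1.18 (-3.06 to 0.70) and -1.22 (-3.27 to 0.83), and for the class I cluster -0.85 (-1.74 to 0.04), so each of these intervals includes 0. The cluster ending in Olfr716 had a log2 change of 0.16 in RS, while the other clusters with 15 or more genes had a negative one. With so few calls in the small clusters, their order between lists carries no weight.

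**Figure D4:**
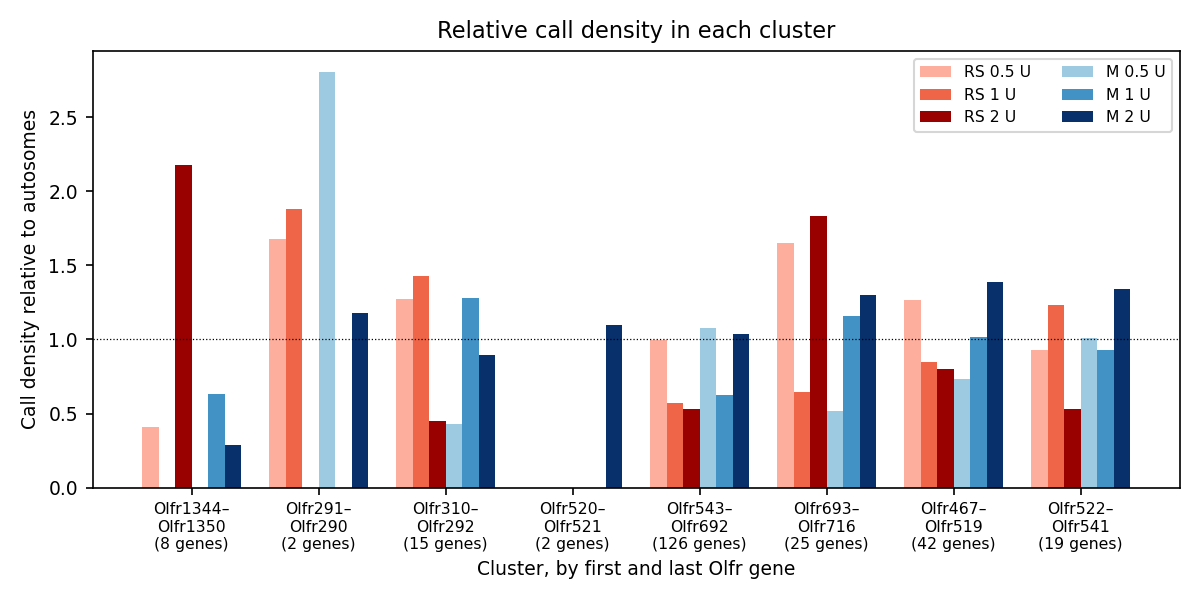
Call density relative to the autosomes (y axis) in each of the 8 clusters (x axis, named by first and last Olfr gene) for the 3 RS and 3 M lists. The cluster of 42 genes declines over the amounts in RS (1.26, 0.849, 0.803) and increases in M (0.733, 1.01, 1.39), while the clusters of 8 and 2 genes rest on 15 calls or fewer.

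Single genes were then described. Of the 107 genes with calls, 47 had 1 call, 34 had 2, 18 had 3 and 8 had 4 or more. Calls were found in RS alone for 49 genes, in M alone for 42 and in both stages for 16. Among all protein-coding genes the shares were 23.3%, 8.94% and 31.7%, among other short genes 12.9%, 6.58% and 3.06%, and among other Olfr genes 20%, 12.1% and 6.36%. Genes with 1 call can only fall in a single stage. In calls per 100000, summed over the amounts, 55 of 239 genes were higher in RS and 52 in M. Among all protein-coding genes 38.2% were higher in RS and 25.7% in M, among other short genes 13.9% and 8.59%, and among other Olfr genes 21.5% and 17%. Of the receptor genes with calls, 51.4% were higher in RS, a share on another base than those above. On that base, 8353 of 13987 protein-coding genes with calls were higher in RS. For other short genes it was 186 of 301, and for other Olfr genes 186 of 333. For 90 genes the calls came from a single list, for 13 from 2 lists and for 4 from 3 lists. No gene had calls in more lists than that. The 47 genes with 1 call can only fall in a single list. The number of lists per gene is not given for other genes, so nothing particular to the receptor genes is read from it.

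**Figure D5:**
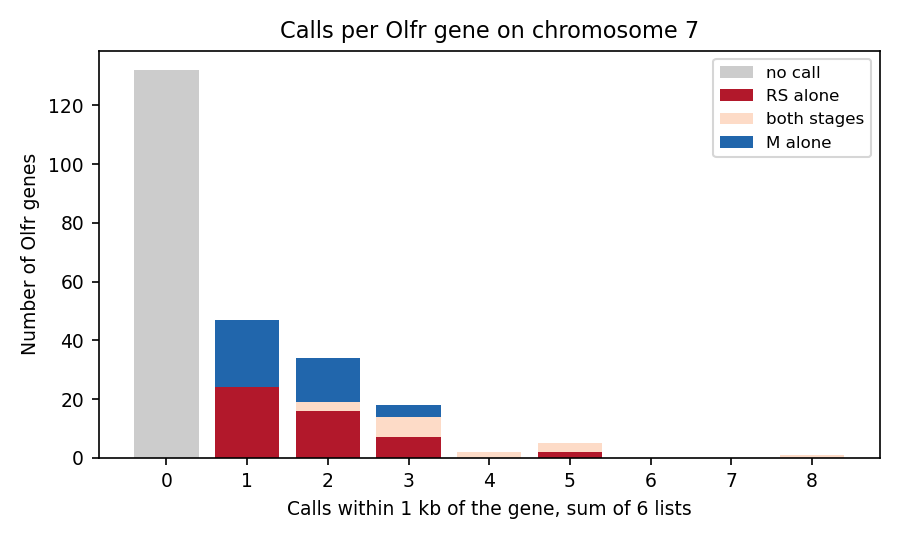
Number of chromosome 7 Olfr genes (y axis) by calls in the gene window summed over the 6 lists (x axis), split by the stage in which they were found. The bar at 0 stands for the 132 genes without a call, and 1 gene, Olfr301, reaches 8.

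Olfr301, a class II gene by position, with a gene model of 9451 bp at chromosome 7 from 86403849 to 86413299, had most calls. It had 4, 2 and 0 calls in RS and 0, 2 and 0 in M, at 6 separate positions, all in the gene body. Olfr639, a class I gene by position from 104011750 to 104012700, had 4, 0 and 1 calls in RS and none in M. Its call in RS at 2 U began at 104012912 and that of RS at 0.5 U at 104012962, and the midpoints joined into 1 position. Olfr687, whose model of 48745 bp is the longest of the set, had 5 calls in RS at 0.5 U and none elsewhere. Olfr290, the last gene of its cluster, had 4 calls in RS at 0.5 U and 1 in M at 2 U. Per 100000 calls, these 4 were higher in RS than in M.

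Higher in M were Olfr685 and Olfr478. Olfr685, from 105180361 to 105181311, had 2, 0 and 0 calls in RS and 0, 1 and 2 in M. Olfr478, from 108031295 to 108033967, had 2, 0 and 0 calls in RS and 1, 0 and 2 in M. In both genes a position in the body was called in RS at 0.5 U and in M at 2 U. For Olfr685 it spans 105180917 to 105181086 and for Olfr478 108032157 to 108032331. With the Olfr639 position, these are the 3 of 138 positions that were found in more than 1 list, and 135 were found in 1.

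The remaining genes with the most calls were each marked mainly in 1 list. Olfr550 had 1 call in RS at 0.5 U and 3 in M at 2 U, and Olfr710 had 3 in RS at 0.5 U and 1 in M at 2 U. Olfr564, Olfr569 and Olfr493 had 3 calls each in M at 2 U and none in RS, and Olfr559, Olfr594 and Olfr502 had 3 each in RS at 0.5 U and none in M. In 5 of these 6 genes the 3 calls overlap at 1 position, and in Olfr502 they lie at 2. Olfr1532-ps1, which the annotation lists as protein-coding, had 2 calls in RS at 0.5 U and 1 in M at 2 U.

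Of 7 receptors named for their known ligands or roles, 4 had a call, against 44.8% of the 239 genes. Olfr2, the octanal receptor known as I7, and Olfr544, a receptor for azelaic acid, had 0 calls in each list, and so had Olfr545. Olfr17, known as P2 from work on axon targeting, had 2 calls in RS at 0.5 U, outside its body. Olfr78, a receptor for short-chain fatty acids that is also expressed outside the nose, had 1 call each in RS at 0.5 and 1 U and in M at 0.5 U, over a model of 18751 bp. Olfr558 and Olfr690 had 1 call each, in M at 2 U. Of the 16 genes at cluster ends, Olfr290, Olfr292, Olfr693, Olfr519 and Olfr522 had calls, and no list held more than 4 for one of them. Counts of this size do not tell genes apart, since 1 read more or fewer decides a call.

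Most calls at the receptor genes stood at the minimum strength, as calls did in general. Of 210 calls, 157 (74.8%) stood at the minimum of 6 implied reads, and the strongest had 8. This minimum was not equally strict in each list, since implied coverage was 0.696 in RS at 0.5 U and 0.409 in RS at 2 U. The share above the minimum was 26.2%, 33.3% and 25% in RS, where the autosomes had 29.7%, 28.8% and 29.5%. In M it was 29.4%, 30% and 15.9%, where they had 32.3%, 29.4% and 30.1%. The interval of each of these shares included the autosomal value, in M at 2 U only at its upper limit (6.64 to 30.1). In the clusters the interval lay below the autosomal value in RS at 2 U (9.52%, 2.66 to 22.6) and M at 1 U (16.5%, 10.1 to 24.8). It also lay narrowly below in M at 2 U (22.9%, 16.7 to 30.04, against 30.05), and in the other lists it included that value. None of the 239 windows touched one of the 260 dense bins. Of the member calls, 11 of 210 (5.24%, 2.64 to 9.18) had a call of another list within 73 bp. In the clusters the share was 4.96% (3.66 to 6.56), and on chromosome 7 outside the clusters, without the dense bins, it was 8.81% (8.42 to 9.23). Among calls of 6 reads it was 4.46% (1.81 to 8.97) at the receptor genes, 3.85% (2.55 to 5.55) in the clusters and 6.37% (5.97 to 6.78) outside. The 11 calls lie at 3 positions, in Olfr639, Olfr685 and Olfr478, so they are not independent and these intervals are too narrow. The difference between the clusters and the rest of the chromosome was not tested.

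How reads that match several near-identical genes were treated is not stated, so counts in these gene families may be shared between copies or missing. The clusters also hold 29 other protein-coding genes. The 5 beta-globin genes, which lie inside the class I cluster, had 1 call in all, at Hbb-bh2 in RS at 1 U. Of 12 Trim genes, a family of E3 ubiquitin ligases, 6 had calls, with 15 in RS and 16 in M, where 63.9% of all protein-coding genes had a call. Trim30a had 6, 0 and 0 calls in RS and 1, 3 and 5 in M, and Trim6 had 6, 0 and 0 in RS and 0, 0 and 2 in M. Usp17le, of a family of deubiquitinases, had 2, 2 and 1 calls in RS and 2, 0 and 2 in M. In the cluster from Olfr522 to Olfr541, 5830411N06Rik had 8, 0 and 3 calls in RS and 0, 3 and 5 in M.

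Of 20 genes for olfactory signalling and receptor choice, 12 had calls, 9 higher in RS and 3 in M per 100000 calls. Over all protein-coding genes the shares were 63.9%, 38.2% and 25.7%, so the count with calls is near that of all genes. The olfactory marker protein gene Omp and the channel subunit gene Cnga4, both on chromosome 7, had 0 calls in each list. Long genes held most of these calls. The transcription factor gene Ebf1, of 389997 bp, had 30, 13 and 5 calls in RS and 6, 8 and 12 in M. Ano2, a chloride channel gene of 349715 bp, had 17, 7 and 10 in RS and 3, 9 and 11 in M. Lhx2, a homeodomain factor gene needed for olfactory neurons, had 4, 0 and 0 in RS and 0, 4 and 0 in M.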

How the data were processed

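MNase-seq libraries of 12 samples in 6 groups of 2 gave 6 lists. Per the design text of the series, the authors made each list from both replicates of a group. Per the submitters' processing notes, STAR 2.5.2a and the build GRCm38 (mm10) were used. How calls were made, and at which cutoff, is not given in the sources used here. The deposited lists hold 140 bp intervals with a p-value per call, and the number of reads is unknown. The p-values were matched to upper tails of Poisson distributions, which gave implied reads (minimum 6 in each list, if the p-value is the tail from the observed count up) and mean coverage. Between 65.4% and 69.5% of calls stood at that minimum, so 1 read decides many calls.

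Midpoints (start plus 70) were counted in Olfr gene windows and in clusters (neighbours within 500 kb) with RefSeq GRCm38.p6 genes, in Python 3.11.15 with scipy 1.17.1. Intervals are exact Poisson, exact binomial (Clopper-Pearson) or, for log2 ratios, normal from the counts. No test was run, since each group has 1 list. The planned class assignment by protein sequence was replaced by position, as no protein table was used. Genes with at most 2000 bp, the shares for promoters and for calls in 1 stage, and the set comparisons under stricter, merged and no-dense-bin calls were chosen after seeing the data. The rule for named genes took the 15 with most calls, with ties broken by symbol. It also took up to 5 per stage with 5 or more calls and the largest stage difference, genes in 5 or more lists (none), cluster ends and 7 known receptors. Any further gene was named with its values known. The gene set and lists were chosen with earlier results of these data known. The counting and the read assignment were tested on simulated data and returned every placed call and read count. Alternatives were other flanks, cluster gaps, denominators, stricter or merged calls and no dense bins.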

Additional observations from a re-analysis of the deposited data

Results flagged for a closer look

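The relative density at the chromosome 7 Olfr genes moved in opposite ways over the MNase amounts in the stages, lower at each step in RS (1.53, 0.801 and 0.421) and higher at each step in M (1.13, 1.38 and 1.85). The interval of the log2 change from 0.5 to 2 U in M includes 0 (0.71, -0.10 to 1.52), as does that in RS with merged calls. Between the stages the change differed by -2.58 (RS minus M, -4.23 to -0.92, counting error only). The same sign was found for Olfr genes on other autosomes (-1.28, -2.05 to -0.52) and for Vmn1r genes (-2.37, -4.67 to -0.06). Vmn2r genes had the opposite sign, with an interval that includes 0 (0.40, -0.23 to 1.04). With calls above 6 reads the interval of the chromosome 7 Olfr genes includes 0 (-1.85, -5.17 to 1.47). With 1 list per group this difference was not tested. List size and implied coverage moved in the same directions, and their part in the result was not tested.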

How the results depend on the processing

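Each value was recomputed under the alternatives, with 125 of 151 staying within the interval of the reported value, or within 1.5 times of a count. The relative density at the genes was lower at each step of MNase in RS under all 7 alternatives for it, and higher at each step in M under 6 of them; with calls above 6 reads, M at 2 U was 0.978 instead of 1.85, from 7 calls. Without flanks M at 2 U was 2.78, and with 5000 bp flanks 1.26. Without 2 U the stage ratio, averaged on the log2 scale, was -0.17 for genes and 0.10 for clusters. With calls above 6 reads the cluster densities were 0.232 in RS at 2 U and 0.635, 0.457 and 0.861 in M, and the cluster log2 ratios 0.73, 0.49 and -1.89. Relative to protein-coding genes the clusters stood at 1.28 in RS at 0.5 U and at 1.26 and 1.03 in M at 0.5 and 1 U; relative to the rest of chromosome 7, RS at 0.5 U was 1.24. Without flanks 31 and 4 genes had a call in RS at 0.5 and 1 U, and 7 and 11 in M. With calls above 6 reads there were 18, 4 and 1 in RS and 3, 7 and 4 in M. For the gene windows, each interval of a ratio, difference or relative density that excluded 0 or 1 and could be recomputed with calls above 6 reads then included it, except M at 1 U against the spaces between genes (2.37, 1.04 to 3.70). The causes were not tested, but that setting keeps few calls. No paired analysis was possible because the authors combined the replicates of a group into 1 list; for the same reason no replicate could be left out. Depth limits all statements on single genes.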
